A study of Glycine max with 4 samples.

Results

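Wide sites bound by the GLYMA.06G314400 protein are described here in embryos of soybean (Glycine max), taken from the cultivar Williams 82 at early maturation. They are the regions where the peak lists of both chromatin immunoprecipitation sequencing (ChIP-seq) libraries hold a peak of at least 800 bp. Peaks of the 2 lists on the 20 chromosomes that overlapped by 1 bp or more were joined, and 36103 of the 50431 joined regions held a peak of each replicate and are called shared. Of these shared regions 699 were wide (1.94%, exact 95% interval 1.80 to 2.08), and 18361 were narrow, with both widths under 400 bp (50.9%, 50.3 to 51.4). The remaining 17043 shared regions belong to neither class.

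The study has 4 samples, all of this cultivar and stage and with no other genotype or treatment in the labels: 2 biological replicates precipitated with an antibody against a peptide of the protein, and 2 input samples of chromatin set aside before precipitation. Each ChIP library has 1 peak list, and the input libraries enter only as the background inside these lists. No control antibody library is among the samples, so binding of this protein and other signal that recurs with the antibody cannot be told apart. The number of embryos per sample was not stated.

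The peak names carry the word AREB3, used for bZIP transcription factors that bind ABA-responsive elements. In plants, such factors bind DNA as dimers at short sequences with an ACGT core and act in abscisic acid signalling, which in seeds promotes maturation, the storage of reserves and later desiccation tolerance. A single contact point on DNA is seen in ChIP-seq as a hump about as broad as the sequenced fragments, because each fragment covers more than the contact itself. A peak is the whole stretch over which the pileup of fragments passes the calling threshold against the background. The lists give each peak 1 summit, the position of the highest pileup of fragments.

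The replicate 1 list held 39607 peaks on the chromosomes and the replicate 2 list 47466, with median widths of 344 bp and 337 bp and narrowest peaks of 202 bp and 195 bp. Replicate 2 was the deeper library, with 6.36 fragments as its lowest background against 3.00 in replicate 1, and the part of depth in the peak widths was not tested.

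The wide regions were made of single long peaks that recurred in both libraries. Peaks of at least 800 bp numbered 966 in replicate 1 (2.44% of the list) and 1196 in replicate 2 (2.52%). Each of them lay in a shared region, so 0 of 966 and 0 of 1196 were unshared, which allows shares of up to 0.311% and 0.251%. Over all widths, 36103 of the 50431 joined regions were shared. The share of peaks of all widths that lay in shared regions was not worked out for either list. The widest peak of a wide region had a median width of 939 bp in replicate 1 (range 800 to 2593) and 951 bp in replicate 2 (800 to 2323). In narrow regions these medians were 288 bp and 304 bp. In 663 wide regions each replicate had 1 peak, and in 36 (5.15%) at least 1 replicate had a further peak.

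**Figure D1:**
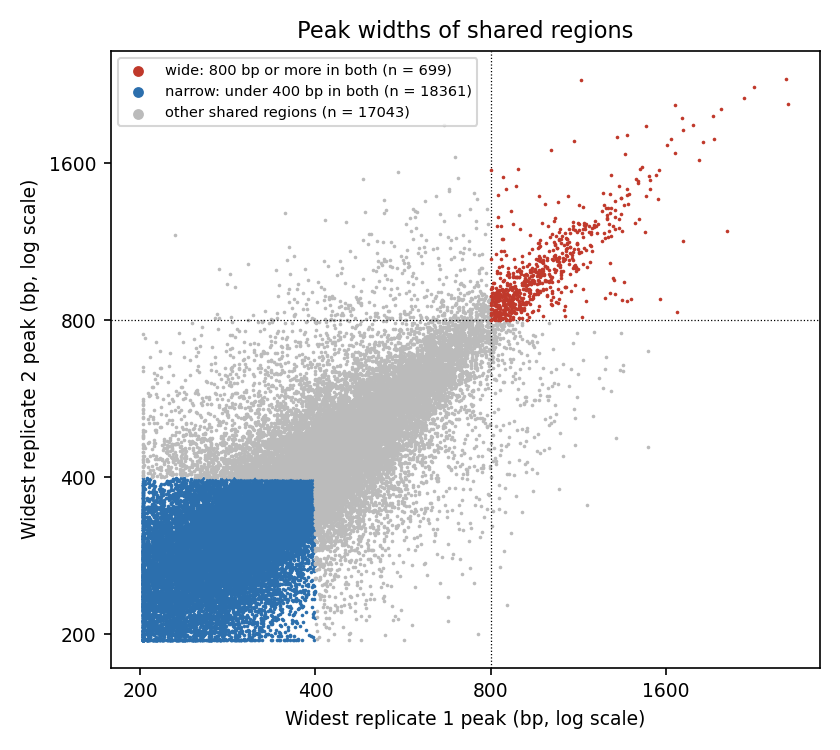
Width of the widest replicate 1 peak (horizontal axis, bp, log scale) and of the widest replicate 2 peak (vertical axis, bp, log scale) in 36103 shared regions, 1 point per region, with dotted lines at 800 bp. The 699 wide regions continue the band of the other regions without a gap at the limit, and the widest by the smaller width reaches 2323 bp.

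The limit cuts through a continuous range of widths. Just inside it lay the region on chromosome 4 from 9187923 to 9188746, where replicate 1 measured 800 bp and replicate 2 measured 824 bp. Next to the limit were also chromosome 7 from 4114031 to 4114893, with 863 bp and 800 bp, and chromosome 5 from 2205376 to 2206208, with 803 bp and 801 bp. Just outside it, at 799 bp in 1 replicate, were regions on chromosome 4 that spanned 890253 to 891136 and 6278637 to 6279503, and another on chromosome 17, spanning 7374154 to 7374982. A further 266 shared regions were 800 bp or wider in replicate 1 alone, where replicate 2 had a median width of 657 bp. In 100 of these (37.6%) replicate 2 had more than 1 peak in the joined region. In replicate 2 alone 497 regions passed the limit, with a median of 645 bp in replicate 1, and replicate 1 had more than 1 peak in 160 of them (32.2%). There, a joined region with a long peak in one replicate held several peaks of the other.

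The 6 widest regions, by the smaller of their 2 widths, show the range of shapes. The widest lay on chromosome 1 from 3714997 to 3717570, with 2574 bp in replicate 1 and 2323 bp in replicate 2, and with moderate fold enrichment at the summit (12.5 and 13.8). On chromosome 19 from 50232097 to 50234370 the widths were 2274 bp and 2240 bp, and on chromosome 10 from 47753577 to 47755775 they were 2185 bp and 2135 bp. The region on chromosome 8 from 2703120 to 2705712 held the widest peak of all, 2593 bp in replicate 1, where replicate 2 had 2 peaks with the wider at 2076 bp. On chromosome 13 from 37115058 to 37117087 peaks of 1994 bp and 2030 bp had only 9.42-fold and 8.70-fold enrichment. The sixth, on chromosome 6 from 5947857 to 5949874, measured 1928 bp and 1967 bp with 43.8-fold and 27.9-fold enrichment. Great width thus occurred at moderate as well as at high enrichment. All positions count from 1 and use the build of the lists (not named in the labels). Nearby genes were not analysed here.

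Wide regions were mostly strong sites. The median of their fold enrichment, the authors' ratio of ChIP pileup to background at the summit, was 17.7 in replicate 1 and 14.2 in replicate 2, and the middle 50% of them spanned 12.1 to 25.4 and 10.0 to 19.6. Narrow regions had medians of 5.58 and 4.98. At the summit of wide regions a median of 88 fragments piled up in replicate 1 and 142 in replicate 2, against 26 and 47 in narrow regions. The input-based background under these summits was close in both classes, with medians of 3.93 and 8.77 fragments in wide regions and 3.72 and 8.55 in narrow regions. Enrichment of 10-fold or more in each list was reached by 509 wide regions (72.8%) and by 494 narrow regions (2.69%). These values come from the same comparison of ChIP with input as the widths that chose the regions, so they are a description and were not tested.

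Strength and width went together over all shared regions, while wide regions occurred over a range of strengths. Ordered by the mean log2 fold enrichment of both replicates and cut into deciles, shared regions had a median smaller width of 228 bp in the weakest decile and 535 bp in the strongest. Wide regions made up 9.78% of the strongest decile (353 of 3611), 4.54% of the ninth (164 of 3610) and 0.161% of the lower 5 deciles together (29 of 18052). About as many wide regions thus lay below the strongest decile (346) as in it, and 90.2% of the strongest decile was not wide. Over the 36103 shared regions, which share libraries and depth, the Spearman correlation of smaller width with mean log2 fold enrichment was 0.773, and within the 699 wide regions it was 0.204, a value that the limit on width lowers by itself.

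**Figure D2:**
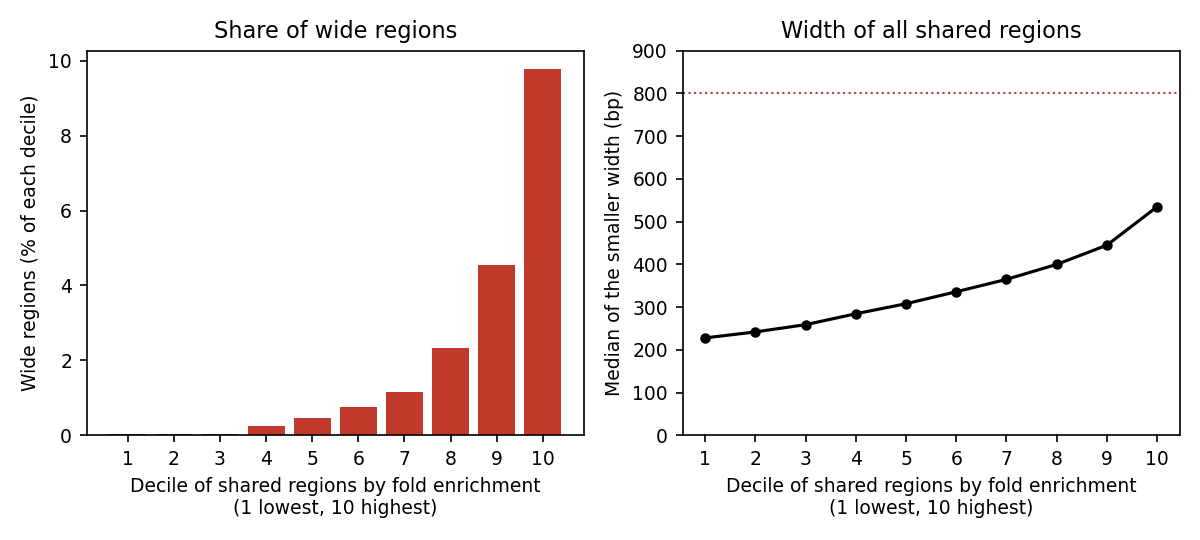
Left, percent of shared regions that were wide (bars) in each decile of fold enrichment, and right, median of the smaller of the 2 peak widths (bp, points) over all shared regions of the decile, with a dotted line at 800 bp. The share of wide regions reaches 9.78% in the highest decile, while the median width there, 535 bp, stays under the limit.

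At the top of the ranking, wide regions were frequent. With shared regions ranked by the worse of their 2 ranks by peak p, 6 of the 10 best, 32 of the 100 best and 102 of the 500 best were wide, and none of the 1000 best was narrow. Over all shared regions 1.94% were wide and 50.9% narrow. The ranks come from the same comparison of ChIP with input as the widths, so these counts are a description and were not tested. The wide region with the highest smaller fold enrichment, on chromosome 3 from 23958616 to 23959777, measured 1062 bp and 1162 bp and was enriched 46.8-fold and 39.8-fold in the 2 lists. It was followed by chromosome 11 from 2852695 to 2853848 (59.3-fold and 39.7-fold), chromosome 12 from 39597290 to 39598240 (50.8-fold and 38.4-fold) and chromosome 14 from 38859020 to 38860458 (45.6-fold and 37.5-fold). The 4 weakest wide regions reached at most 7.85-fold in replicate 1 and 4.19-fold in replicate 2. The weakest, on chromosome 6 from 11004047 to 11004959, had 4.71-fold enrichment from 23 fragments in replicate 1 and 2.94-fold from 45 fragments in replicate 2, yet measured 894 bp and 889 bp. The others were chromosome 20 from 40591936 to 40592905, chromosome 17 from 3886723 to 3887561 and chromosome 15 from 1571254 to 1572099.

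The summits of wide regions lay off centre. The distance from the summit to the middle of the peak, as a percent of the distance from the middle to the edge, was 38.8% in replicate 1 at the median and 38.5% in replicate 2, with interquartile ranges of 24.4 to 51.9 and 25.3 to 51.7. Narrow regions had medians of 11.7% and 10.0%. The offset rose gradually with width and was not particular to the wide class. By smaller width, its medians were 24.3% and 26.0% at 600 to 699 bp, and 31.5% and 32.5% at 700 to 799 bp. In bases, the summit was a median of 185.5 bp from the centre of wide peaks in each replicate, and 17 bp and 15 bp from that of narrow peaks. Both replicates had an offset over 25% in 458 wide regions (65.5%, exact interval 61.9 to 69.0) and in 822 narrow regions (4.48%, 4.18 to 4.79). Only 35 wide regions (5.01%) had a summit within 10% of the centre in both replicates, against 4405 narrow regions (24.0%). An offset can be larger in bases where a peak is wider, so the rule bears on these values and they were not tested.

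Both replicates leaned the same way. In 614 of 699 wide regions (87.8%, 85.2 to 90.2) the summit lay on the same side of the centre in both lists, against 9374 of 18361 narrow regions (51.1%, 50.3 to 51.8). Narrow summits lay a median of 17 bp and 15 bp from the centre, where a small shift changes the side. By smaller width, the share was 78.6% at 600 to 699 bp and 86.1% at 700 to 799 bp, just below the limit. Within the strongest decile it was 92.9% for wide regions and 69.4% for regions with a width under 800 bp. The signed offsets of the replicates had a Pearson correlation of 0.760 across wide regions and 0.0425 across narrow regions, both as a description. Neither direction along the chromosome was preferred, since the long side pointed to higher coordinates in 347 wide regions in replicate 1 (49.6%) and in 350 in replicate 2 (50.1%). Wide summits lay a median of 185.5 bp from the centre, and the summits of the 2 replicates a median of 19 bp apart. At such distances the side seldom changes. The rule thus bears on these values too, which are a description and were not tested.

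**Figure D3:**
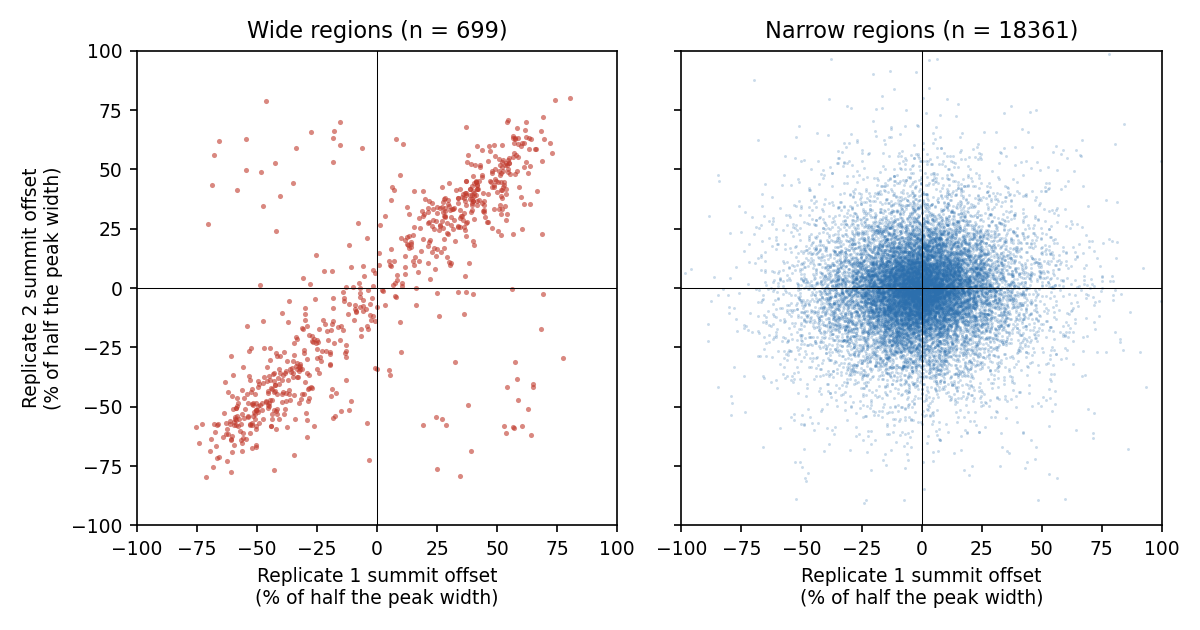
Signed distance of the summit from the peak centre in replicate 1 (horizontal axis) and replicate 2 (vertical axis), as a percent of the distance from centre to edge, for wide regions (left, n = 699) and narrow regions (right, n = 18361), 1 point per region. Most wide regions lie along the diagonal away from 0 and a few in the corners of opposite sign, while narrow regions form 1 cloud around 0.

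The extra length of wide peaks lay mostly on 1 side of the summit. From the summit to the nearer edge, wide peaks measured 292 bp in replicate 1 at the median and 290 bp in replicate 2, and to the farther edge 654 bp and 661 bp. Narrow peaks measured 123 bp and 134 bp to the nearer edge and 165 bp and 169 bp to the farther edge. Step by step over all shared regions, the long side grew faster than the short side. Regions with a smaller width of 500 to 599 bp had short sides of 229 bp and 234 bp and long sides of 330 bp and 338 bp, and regions of 1000 bp or more had short sides of 355 bp and 360 bp and long sides of 825.5 bp and 830.5 bp. In 352 wide regions (50.4%, 46.6 to 54.1) the long side was over 2 times the short side in both replicates, against 300 narrow regions (1.63%). A peak with its summit off centre has more of its length on the long side by definition. The rule used the width, so these values are a description and were not tested.

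**Figure D4:**
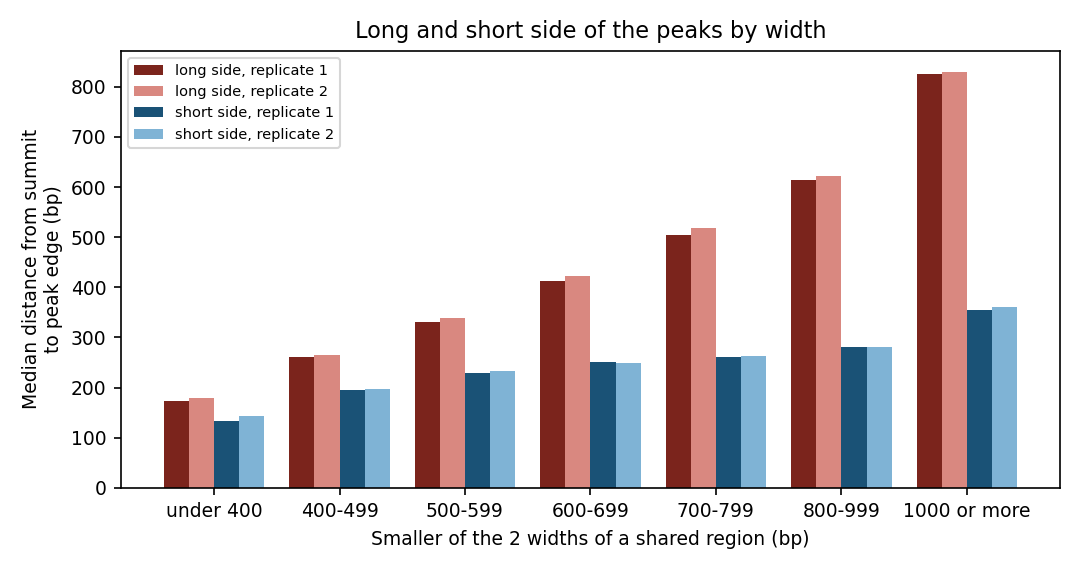
Median distance from the summit to the farther edge (long side) and to the nearer edge (short side) of the widest peak, in bp, for each replicate, in shared regions grouped by the smaller of their 2 widths. The short side of regions from 800 to 999 bp is 280 bp in both replicates, while their long side reaches 614 bp and 622 bp.

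The lean was also present among the strongest sites. Within the strongest decile of fold enrichment, 353 wide regions had a median offset of 34.7% in replicate 1 and 35.2% in replicate 2, and the 3258 regions with a width under 800 bp had 10.6% and 11.1%. In the same decile the short side was 315 bp in both replicates for wide regions and 235 bp and 236 bp for the others, while the long side was 653 bp in both replicates against 300 bp and 304 bp. The wide regions of this decile were still the stronger ones, with a median fold enrichment of 25.4 and 19.5 against 22.0 and 17.6. The 2 groups were split by width, so the rule bears on these values too. What part strength has in the offset was not tested.

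The summits farthest off centre to the same side in both replicates sat near one end of long peaks. On chromosome 13 from 37115058 to 37117087 the offset was 80.4% in replicate 1 and 80.1% in replicate 2, with 195 bp and 201 bp to the nearer edge and 1798 bp and 1828 bp to the farther edge. On chromosome 10 from 47753577 to 47755775 the summits lay 74.2% and 79.2% off centre, toward higher coordinates as on chromosome 13. The region on chromosome 1 from 1476772 to 1477925 leaned toward lower coordinates, by 71.1% and 79.8%. On chromosome 16 from 3594488 to 3595994 the lean was 69.0% and 72.2%, toward higher coordinates. Summits of the replicates differed by 3 to 25 bp in these 4 regions.

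Summit positions agreed closely in most wide regions, as in narrow ones, with a longer tail. The summits of the best peak of each replicate lay a median of 19 bp apart in wide regions (interquartile range 8 to 39.5) and 23 bp in narrow regions (10 to 43). The share within 50 bp was 81.7% in wide regions (78.6 to 84.5) and 80.9% in narrow regions (80.3 to 81.4). Summits over 200 bp apart, about the length of the narrowest peaks, occurred in 49 wide regions (7.01%, 5.23 to 9.16) and in 47 narrow regions (0.256%, 0.188 to 0.340). Narrow regions leave little room for such a distance, so the rule bears on this difference. Over the width steps the share rose with width, reaching 4.83% at 600 to 699 bp and 7.01% at 800 to 999 bp. Within the strongest decile, summits agreed less often in wide regions than in regions with a width under 800 bp. There, 90.4% of wide regions and 96.3% of the others had summits within 50 bp. Summits over 200 bp apart occurred in 1.42% and 0.0614%.

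Of the 49 wide regions with summits over 200 bp apart, 45 (91.8%) had the summits of their widest peaks at opposite sides of the centre. The summit distances of the 49 had a median of 447 bp (range 201 to 1047). A larger distance leaves less room on 1 side of a peak, and this share was not tested. The 49 had a lower median fold enrichment, 10.7 in replicate 1 and 9.71 in replicate 2, than the other 650, with 18.6 and 14.7, while their median widths were 936 bp and 920 bp against 939.5 bp and 951 bp. Only 5 of the 49 were in the strongest decile, against 348 of the 650. On chromosome 14 from 46070638 to 46072419 the summits lay 1047 bp apart, in peaks of 1636 bp and 1782 bp with nearly equal fold enrichment of 14.0 and 14.6. The region on chromosome 18 from 41895656 to 41897593 had them 1037 bp apart, that on chromosome 6 from 39371256 to 39373072 had them 1023 bp apart, and that on chromosome 10 from 40648279 to 40649898 had them 869 bp apart. In these 4 regions the replicates placed the highest pileup at different points of one joined stretch.

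Edges were compared as a description, since the rule removed regions that were long in 1 list only. Between the replicates, the starts of the widest peaks differed by a median of 34 bp (interquartile range 14 to 66.5) and the ends by 32 bp (15 to 60), against 27 bp for both in narrow regions. The stretch covered by both peaks made up a median of 92.5% of the joined span in wide regions and 81.5% in narrow regions, where the same gap takes up more of a shorter span. Wide peaks were longer in replicate 2 in 401 of 699 regions (57.4%), and narrow ones in 10761 of 18361 (58.6%).

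Along the chromosomes, wide regions lay slightly more often near the ends than narrow regions, but this difference depended on the settings. In the outer 20% at each end of a chromosome, with the last peak marking the end of its span, lay 503 of 699 wide regions (72.0%, 68.5 to 75.3) and 12508 of 18361 narrow regions (68.1%, 67.4 to 68.8). Averaged over 20 chromosomes the share was 72.3 ± 11.7% for wide and 69.4 ± 11.1% for narrow regions (SD over chromosomes), a difference of 2.85 percentage points. Wide regions had the higher share on 16 of 20 chromosomes (two-sided exact sign test, p = 0.0118, and 0.0118 after Benjamini-Hochberg adjustment over the 2 tests made). Chromosomes 2, 17, 18 and 20 went the other way, by up to 15.4 percentage points on chromosome 18. The call was lost in 6 of 10 alternatives, among them a width limit of 700 bp (adjusted exact sign test p = 0.263), peaks of q at most 1e-10 (0.263) and the strongest decile alone (0.238). With replicate 2 alone the difference was 4.68 percentage points (adjusted exact sign test p = 0.000402). The p values here rest on how often the direction recurred over chromosomes of the same 2 libraries. They do not measure the size of the differences or the spread between embryo samples.

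Chromosomes carried between 21 wide regions (chromosome 15) and 49 (chromosome 8), or 1.24% of the shared regions on chromosome 15 and 2.65% on chromosome 5, where the share was highest. Between 40 and 60% of the span lay 33 wide regions (4.72%, 3.27 to 6.57) and 1160 narrow regions (6.32%, 5.97 to 6.68), whose intervals overlap. Of these 33, chromosome 13 held 10, and 8 chromosomes held none. On chromosome 13 the outer zones held 43.9% of wide regions and 32.0% of narrow regions, the lowest share of both classes.

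Wide regions had more neighbours than narrow regions. Within 5 kb of their edges lay a mean of 1.19 other shared regions, against 0.924 for narrow regions. The number rose gradually with width. By smaller width, the mean was 1.08 at 600 to 699 bp and 1.14 at 700 to 799 bp, just below the limit. At least 1 neighbour was present for 484 of 699 wide regions (69.2%, 65.7 to 72.6) and for 10626 of 18361 narrow regions (57.9%, 57.2 to 58.6), and at least 3 for 91 wide and 1422 narrow regions. Averaged over 20 chromosomes the number was 1.19 ± 0.213 for wide and 0.919 ± 0.0757 for narrow regions (SD over chromosomes), and wide regions had more on 17 of 20 (two-sided exact sign test, p = 0.00258, adjusted p = 0.00515). The exceptions were chromosomes 5, 10 and 12.

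**Figure D5:**
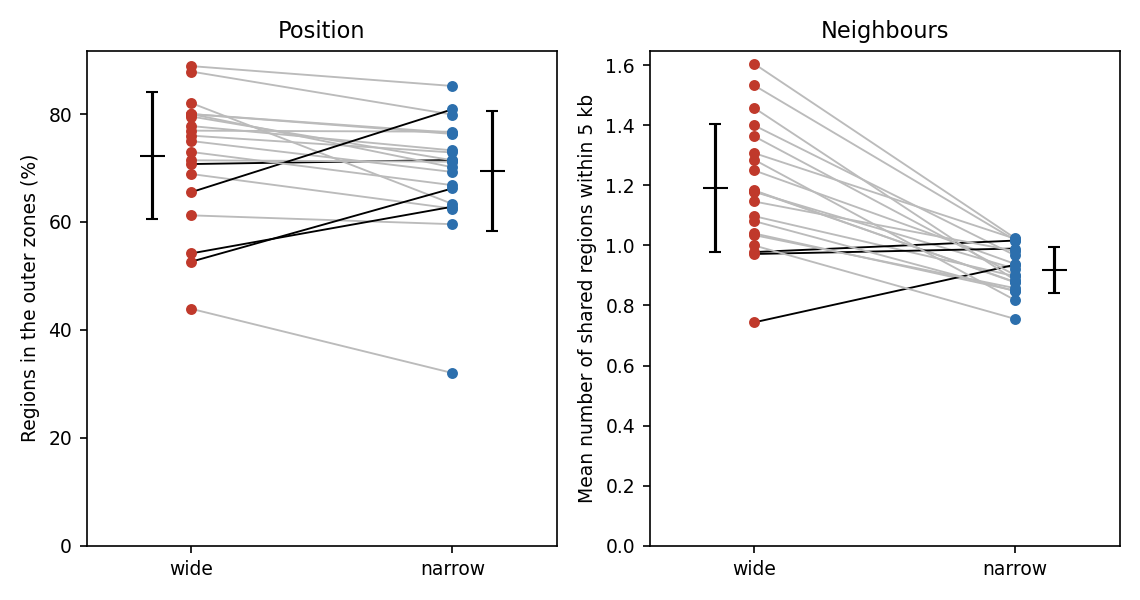
Share of regions in the outer 20% at each end of the span (left, percent) and mean number of other shared regions within 5 kb (right), for wide and narrow regions of each of the 20 chromosomes, joined by a line, which is black where wide regions were lower. Bars beside the points give the mean ± SD over chromosomes, 72.3 ± 11.7% and 69.4 ± 11.1% on the left and 1.19 ± 0.213 and 0.919 ± 0.0757 on the right.

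The difference in neighbours held within the outer zones, and its call was lost among the strongest regions. Position inside the zones was not matched. Averaged over chromosomes, the outer 10% at each end held 44.9% of wide and 40.2% of narrow regions. In the outer zones alone, wide regions averaged 1.22 neighbours and narrow regions 0.991 over chromosomes (wide higher on 17 of 20, adjusted p = 0.00515 by the exact sign test). Within the strongest decile, over the 18 chromosomes with at least 10 wide regions there, wide regions averaged 1.25 and regions with a width under 800 bp averaged 1.02 (wide higher on 14 of 18, exact sign test p = 0.0309, adjusted p = 0.0618). The nearest shared region lay a median of 2495 bp from the edge of a wide region and 3721 bp from that of a narrow one, and within 1000 bp for 198 wide (28.3%) and 3837 narrow regions (20.9%). The nearest neighbours within 5 kb were of ordinary strength beside both classes, with a median fold enrichment of 7.42 and 6.43 next to wide regions and 7.14 and 6.29 next to narrow regions.

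Most neighbours, 6 within 5 kb each, surrounded a wide region on chromosome 17 from 10226342 to 10227549, enriched 20.7-fold and 16.4-fold, and another on chromosome 18 from 2732771 to 2733667, enriched 31.4-fold and 31.9-fold. With 5 neighbours followed chromosome 1 from 32299410 to 32300317 and chromosome 4 from 32886368 to 32887679, and 4 further wide regions also had 5. Both of these named regions lie away from the chromosome ends, at 56.9% and 62.8% of the span. No other shared region lay within 5 kb of 215 wide regions (30.8%), among them the third widest, on chromosome 10.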

How the data were processed

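ChIP-seq peak lists of 2 ChIP libraries were used, 1 per biological replicate. The submitters' processing notes name Bowtie 0.12.7 and MACS2, and the peak names give a q threshold of 0.01. Of genome build, pairing of input with ChIP and treatment of duplicate reads nothing was stated. The deposited fold enrichment is a ratio at the summit. The −log10 p and −log10 q are the authors' values for each peak, and the deposited score is 10 times the −log10 q without decimals (1 score in replicate 2 differs). The deposited peak coordinates and summit distances are in bases. Scaffolds were left out.

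Width is the end minus the start, which the lists count from 0. Summit offset and side lengths use the widest peak of each replicate, and summit distance and strength use the peak with the highest −log10 p. Summit pileup and background were solved from fold enrichment and p under a Poisson law and kept if an integer pileup matched the −log10 p to 0.001, which held for all 39607 summits of replicate 1 and 47465 of 47466 in replicate 2. A neighbour is another shared region whose edge lies within 5 kb. Sign tests used chromosomes with at least 10 regions of each class. The code for joining, neighbours and pileups was tested on simulated lists. Exact intervals are Clopper-Pearson, and they and the upper limits for counts of 0 (3 counts of the total) cover counting error only, since regions are not replicates. Tools were Python 3.11.15, pandas 2.3.3, numpy 2.4.6 and scipy 1.17.1.

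Regions were named by rule: the 6 widest by the smaller width, 3 on each side of the limit, 4 each of highest and lowest smaller fold enrichment, 4 with the largest summit distance, 4 with the most neighbours and 4 farthest off centre to the same side. The class, lists and tests were chosen with earlier results of these data known. No sequence is shown, since a genome on the build of the lists was not used here.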

Additional observations from a re-analysis of the deposited data

How the results depend on the processing

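Of 41 alternatives, 26 kept the call, a count within 1.5 times the main one, or a value within the spread or interval of the main one. Only 2 results were tested differences with a direction, which stayed the same throughout. The outer share kept its call in 4 of 10 alternatives and the neighbours in 11 of 13. The other alternatives, for member count, summit offset and summit agreement, had no direction or call to lose. The difference in outer share, 2.85 percentage points, lost its call with 700 bp (2.72) and 1000 bp (2.21) as the width limit, with 1 peak of each replicate only (3.55), with q at most 1e-10 (2.73), with the outer 10% at each end (4.74) and within the strongest decile of fold enrichment (3.24). This last comparison was chosen after seeing the data. Their adjusted p values ranged from 0.115 to 0.263, and without chromosome 13 the adjusted p was 0.0192. Single lists gave 2.72 to 4.68 percentage points (without replicate 2 and without replicate 1), both past the threshold. The difference in neighbours, 0.273, kept its call in 11 of 13 alternatives. It lost it at the limit of 1000 bp, where 11 chromosomes were left (0.372, higher on 9 of 11, adjusted exact sign test p = 0.131), and within the strongest decile (0.223, higher on 14 of 18, adjusted exact sign test p = 0.0618). For neighbours, single lists gave 0.277 and 0.360. The number of wide regions was 1287 at 700 bp and 200 at 1000 bp, and 966 to 1196 wide peaks were in single lists, by construction. The median summit offset, 38.5% as the mean of both replicates, was 36.0% at 700 bp, 41.3% at 1000 bp and 38.9% to 39.0% in single lists. The median summit distance stayed at 18 to 19 bp in every alternative run for it. No paired analysis was possible because only ChIP lists entered the comparisons, without values of single input samples. A peak edge marks where the pileup passes the calling threshold, so width is not the extent of bound DNA.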

Other observations

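Neighbours were about as many beyond the long side of wide regions as beyond the short side. In the 614 wide regions that leaned the same way in both replicates, 374 neighbours within 5 kb lay beyond the long side and 378 beyond the short side, with more on the long side in 188 regions and more on the short side in 183. In narrow regions with both long sides alike (9527) the numbers were 4401 and 4421.

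Pairs of wide regions within 5 kb of each other numbered 10. The closest pair, picked after its values were seen, lay on chromosome 8 from 9020722 to 9021596 and from 9022166 to 9023074, 569 bp apart, with 16.9-fold and 14.8-fold enrichment in replicate 1 and 17.2-fold and 11.04-fold in replicate 2.

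Of 41 shared regions whose summit background passed 20 fragments in at least 1 replicate, 0 were wide, which allows a share of up to 7.32%, and 20 were narrow (48.8%). Over all shared regions 1.94% were wide and 50.9% narrow, so these counts do not set the 41 apart. On unplaced scaffolds, which the class leaves out, 3 of 194 shared regions met the width limit in both replicates and 100 were narrow.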
